A study of Saccharomyces cerevisiae with 39 samples.

Results

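The flocculin genes FLO1, FLO5, FLO9, FLO10 and FLO11 of budding yeast were followed in newly made RNA while the DNA binding protein Abf1 was taken out of the nucleus. They are 5 of the 6420 features in the deposited count table, and were taken by their systematic names YAR050W, YHR211W, YAL063C, YKR102W and YIR019C. The family was chosen by the level of FLO1, which was known to be low in the Abf1-tagged strain against the wild type at 0 min, so levels in that comparison are given below as a description with no test. RNA was labelled in living cells with 5 mM 4-thiouracil for 6 min, purified through its label and sequenced (4tU-seq), which reads recent synthesis rather than the amount of RNA in the cell. The tagged cells were BY4742 MATalpha with tor1-1, fpr1del and RPL13A-FKBP12-NAT, and additionally carried Abf1-FRB-yEGFP-3V5-hphMX4. In this anchor-away design rapamycin joins the FRB tag on Abf1 to the ribosomal protein Rpl13a, which carries Abf1 out of the nucleus. They were sampled at 10 times after addition of 7.5 µM rapamycin, every 5 min up to 20 min, every 10 min up to 60 min and then at 75 and 90 min (Abf1 5 min to Abf1 90 min), and after 90 min with the solvent DMSO alone (Abf1 0 min). The wild type (WT) shares tor1-1, fpr1del and RPL13A-FKBP12-NAT, lacks the tag on Abf1, and was sampled after 90 min with 7.5 µM rapamycin (WT 90 min) or with DMSO (WT 0 min). Each of the 13 groups held 3 biological replicates from separate 20 ml cultures, which gave 33 tagged and 6 WT libraries. The labels name 1 strain of each kind, so a difference between the strains cannot be told apart from any other difference between these particular isolates.

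Flocculins are cell wall proteins on long serine- and threonine-rich stalks that let yeast cells stick to each other or to surfaces. Flo1, Flo5 and Flo9 bind mannose chains on neighbouring cells and cause flocculation, Flo10 shares this family's structure and contributes to several forms of adhesion, and Flo11 serves adhesion to surfaces, filamentous growth and biofilms. The genes lie near chromosome ends, where chromatin is often repressive. Laboratory strains of the S288C lineage, to which BY4742 belongs, do not flocculate, because FLO8, the gene of their main activator, carries a stop codon within its reading frame. FLO1 is a textbook target of the Tup1-Cyc8 repressor, and FLO10 and FLO11 are known for being on in some cells and silenced in others. In bulk RNA, fewer cells making a transcript and less of it made per cell cannot be told apart.

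In the R64 reference, the assembly distributed as sacCer3, FLO1 spans chrI:203403-208016 on the plus strand (4614 bp) and FLO9 spans chrI:24000-27968 on the minus strand (3969 bp), at opposite ends of the chromosome. FLO5 spans chrVIII:525392-528619 (plus, 3228 bp), FLO10 chrXI:646356-649865 (plus, 3510 bp) and FLO11 chrIX:389572-393675 (minus, 4104 bp). FLO10 is closest to an end, 17.0 kb away, followed by FLO1 at 22.2 kb, FLO9 at 24.0 kb, FLO5 at 34.0 kb and FLO11 at 46.2 kb. All 5 are annotated as a single coding stretch with no intron. The first 60 coding bases are printed to show how far the members have diverged, with capitals at each base that differs from FLO1 at the same position (RefSeq, R64). They lie at chrI:203403-203462 for FLO1, chrVIII:525392-525451 for FLO5, chrI:27909-27968 for FLO9, chrXI:646356-646415 for FLO10 and chrIX:393616-393675 for FLO11.
FLO1: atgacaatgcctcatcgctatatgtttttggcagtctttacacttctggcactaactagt
FLO5: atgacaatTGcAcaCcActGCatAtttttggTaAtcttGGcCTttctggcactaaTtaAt
FLO9: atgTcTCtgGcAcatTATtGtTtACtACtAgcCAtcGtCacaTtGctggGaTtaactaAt
FLO10: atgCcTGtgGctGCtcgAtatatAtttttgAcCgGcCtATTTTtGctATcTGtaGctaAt
FLO11: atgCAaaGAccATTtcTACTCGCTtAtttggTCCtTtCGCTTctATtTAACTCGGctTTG
Against FLO1, this stretch differed at 16 bases in FLO5, 24 in FLO9, 24 in FLO10 and 38 in FLO11.

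Further into the coding sequence FLO1, FLO5 and FLO9 share long identical stretches, which bears on how reads can be told apart. Coding bases 81 to 170 are the same in FLO1 (chrI:203483-203572) and FLO5 (chrVIII:525472-525561), while FLO9 (chrI:27799-27888, minus strand) has the 14 differences in capitals.
FLO1 and FLO5: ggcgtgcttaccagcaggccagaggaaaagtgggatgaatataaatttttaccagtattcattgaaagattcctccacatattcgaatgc
FLO9: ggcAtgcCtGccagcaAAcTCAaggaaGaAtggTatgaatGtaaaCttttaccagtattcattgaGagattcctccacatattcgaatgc
In a later stretch of 90 bases the roles are turned round: FLO1 (chrI:204263-204352) and FLO9 (chrI:27019-27108, minus strand) are the same, and FLO5 (chrVIII:526252-526341) has 13 differences.
FLO1 and FLO9: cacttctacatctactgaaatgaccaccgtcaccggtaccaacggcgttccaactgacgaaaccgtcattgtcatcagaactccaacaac
FLO5: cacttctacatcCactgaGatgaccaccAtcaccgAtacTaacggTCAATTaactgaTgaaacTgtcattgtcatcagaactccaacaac
In a global alignment 95.2% of aligned coding bases were the same between FLO1 and FLO9, 90.5% between FLO1 and FLO5, and 88.8% between FLO5 and FLO9. With gaps counted as differences these shares were 79.5%, 62.6% and 72.1%. The longest run shared without a mismatch was 817 bases between FLO1 and FLO9, 221 between FLO1 and FLO5, and 159 between FLO5 and FLO9. FLO10 matched these 3 genes at 62.1% to 64.2% of aligned bases and FLO11 at 56.1% to 57.7%, with no shared run over 23 bases. Upstream of the start codon the likeness was gone: over 500 bases, identities between members were 49.0% to 60.1%.

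The stalks are coded by tandem repeats, which differ between the subgroups. Within a capped range of periods, the one with the most exact recurrences was 135 bases in FLO1, FLO5 and FLO9, 189 bases in FLO10 and 81 bases in FLO11. The longest exact array held 3.11 copies in FLO1 and in FLO9 and 3.27 in FLO11, but only 1.91 in FLO5 and 1.80 in FLO10. The FLO11 period itself holds a shorter repeated stretch. A single period is printed for FLO1 (chrI:204527-204661) and for FLO11 (chrIX:392281-392361, minus strand), as the members at either extreme of likeness.
FLO1: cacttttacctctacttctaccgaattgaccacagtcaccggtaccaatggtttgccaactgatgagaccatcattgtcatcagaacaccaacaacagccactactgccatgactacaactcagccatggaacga
FLO11: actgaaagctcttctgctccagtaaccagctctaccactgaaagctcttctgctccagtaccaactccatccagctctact
Reads of 75 bases, taken from both ends of each fragment, were trimmed by 10 at each end before alignment. Windows of 55 bases were therefore laid along each gene and looked up in the whole genome. They treat reads singly, so a pair of reads may be placed where a single window is not unique. Only 39% of FLO9 windows and 48.3% of FLO1 windows were unique, against 65.0% in FLO5, 73.6% in FLO11 and 87.9% in FLO10. Of the FLO1 windows, 39.3% also occurred in FLO9 and 10.3% in FLO5. FLO10 and FLO11 shared no window with any other place, and what was not unique in them was repeated within the gene. How the counting step treated reads that align to several places was not stated, so the counts of FLO1, FLO5 and FLO9 are uncertain and those of FLO10 and FLO11 less so.

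**Figure D1:**
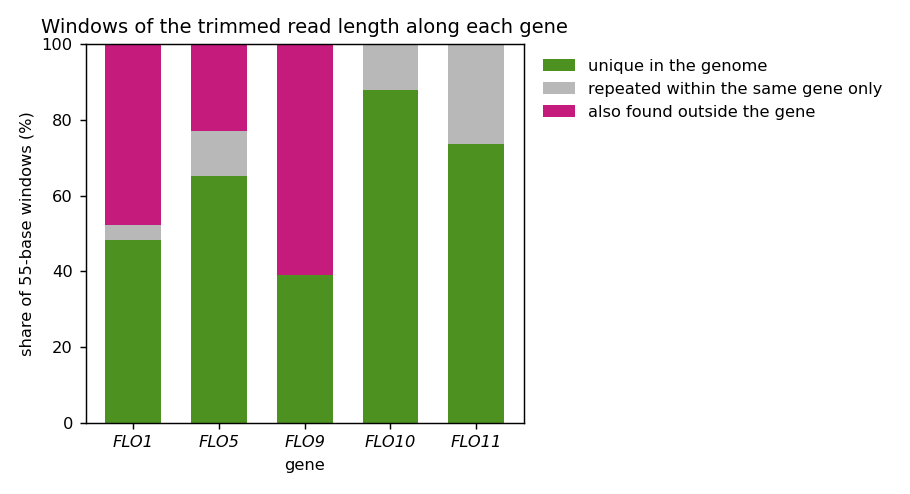
Bars give, for each gene, the share (%) of 55-base windows that are unique in the R64 genome (green), repeated only inside the gene (grey) or also present elsewhere (magenta). FLO9 had the smallest unique share (39%) and FLO10 the largest (87.9%).

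Libraries held between 3500982 and 11266408 counts, with 5467295 as the median. All 5 members passed the filter on low counts, which kept 5722 features. No library had a count for FPR1, whose deletion both strains share. ABF1, which the method depletes as a protein and not as RNA, was higher in Abf1 90 min (885 ± 137 CPM, SD, n = 3) than in WT 90 min (320 ± 11.8 CPM, n = 3), with an edgeR adjusted p of 1.8e-11. Without rapamycin ABF1 was already higher in the tagged strain, with 795, 666 and 735 CPM in Abf1 0 min, against 370, 346 and 385 CPM in WT 0 min. Levels below are counts scaled by the normalized library size (CPM). No reference RNA was added in a known amount, so a shift common to all labelled RNA would not show. A count of 3 was worth 0.268 to 0.864 CPM, depending on the library.

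Per length, FLO5 had the highest level of the family in both strains. In Abf1 90 min the mean level was 42.7 CPM per kb for FLO5, 27.6 for FLO10, 24.0 for FLO11, 0.811 for FLO9 and 0.372 for FLO1. In WT 0 min it was 20.6 CPM per kb for FLO5, 11.6 for FLO11, 10.6 for FLO10, 4.18 for FLO1 and 0.776 for FLO9. Levels were also set against the number of unique windows, with all counts of the gene kept. WT 0 min then had 32.2 CPM per 1000 windows for FLO5, 15.9 for FLO11, 12.2 for FLO10, 8.75 for FLO1 and 2.02 for FLO9, the same order. In Abf1 90 min this scale gave 66.7 CPM per 1000 windows for FLO5, 33.1 for FLO11, 31.9 for FLO10, 2.11 for FLO9 and 0.780 for FLO1, with FLO11 and FLO10 in the other order than per kb. FLO1 thus had the lowest level in Abf1 90 min and FLO9 in WT 0 min.

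**Figure D2:**
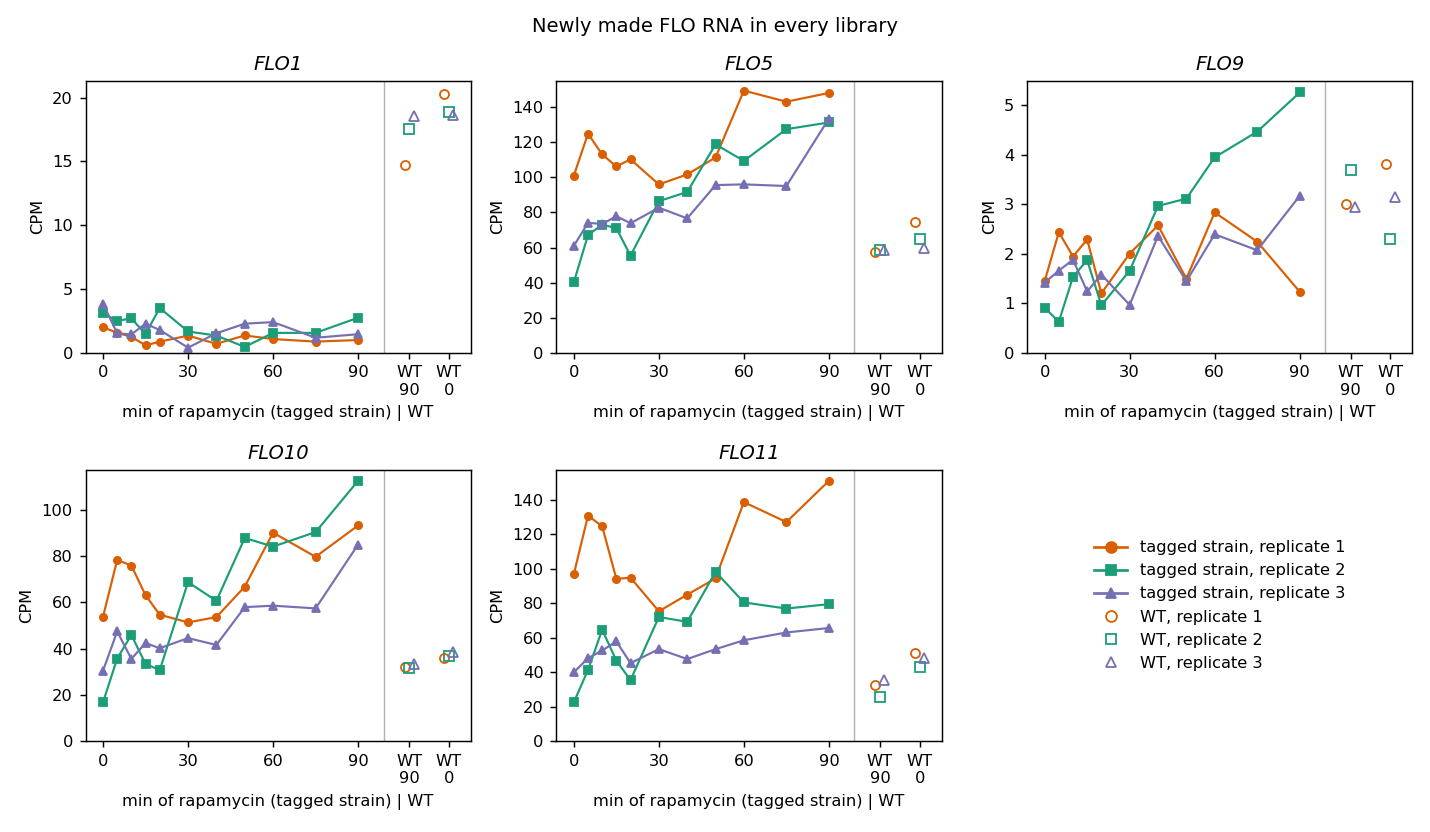
CPM (linear axes, each with its own scale) in every library, with filled symbols joined by lines for the 3 tagged replicates over min of rapamycin, and open symbols to the right for WT 90 min and WT 0 min. FLO1 had at most 3.84 CPM in the tagged libraries and at least 14.7 CPM in the WT libraries, whereas FLO5, FLO10 and FLO11 were higher at 90 min than at 0 min in each tagged replicate.

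FLO1, the classic flocculation gene, was the only member whose strains lay apart at both 0 and 90 min. In the tagged strain it had 1.99, 3.08 and 3.84 CPM at 0 min, against 20.3, 18.9 and 18.7 CPM in WT 0 min. These groups were far from overlapping, with a log2 difference of -2.70 (SE 0.40), but this contrast picked the gene and the value is descriptive. At 0 min 15.1% of all features had every tagged library below every WT library. In the 90 min libraries, which are separate from those of that contrast, FLO1 had 0.983, 2.73 and 1.44 CPM in Abf1 90 min (4, 13 and 5 counts), against 14.7, 17.5 and 18.6 CPM in WT 90 min. Every tagged library was again below every WT library, as in 27.1% of all features. FLO1 was lower in the tagged strain, at -3.25 on the log2 scale (SE 0.45, adjusted p = 4.11e-07 in edgeR's quasi-likelihood test). As the family was chosen with earlier results of these data known, this test is no independent evidence of that direction. A value was called where the adjusted p was under 0.01 and the fold over 1.5, and FLO1 was called in each of the 6 fits that left out a single library, with adjusted p of at most 1.1e-05. It was the single member called lower between the strains at 90 min, where 14.1% of all features tested were called lower. Over all 33 tagged libraries FLO1 lay between 0.386 and 3.84 CPM with a median of 1.51 CPM (2 to 22 counts), against 14.7 to 20.3 CPM with a median of 18.6 CPM in the 6 WT libraries (95 to 115 counts). When the counts of FLO1, FLO5 and FLO9 were added up because of their shared sequence, the sum at 90 min was higher in the tagged strain, at 0.87 (SE 0.25, adjusted p = 0.00508), since FLO5 makes up most of it.

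FLO9, the member most like FLO1 in sequence, lies at the other end of chromosome I. It had 1.44, 0.905 and 1.41 CPM in Abf1 0 min (8, 5 and 7 counts), against 3.81, 2.30 and 3.14 CPM in WT 0 min (18, 14 and 16 counts). These groups did not overlap, as in 15.1% of all features in this direction, and the log2 difference was -1.27 (SE 0.45, a description). At 90 min FLO9 had 1.23, 5.26 and 3.17 CPM in Abf1 90 min, against 3.00, 3.69 and 2.94 CPM in WT 90 min. The tagged libraries now lay on both sides of the WT ones, with a log2 difference of 0.03 (SE 0.40, adjusted p = 0.964).

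The adhesin genes FLO5, FLO10 and FLO11 overlapped between the strains at 0 min and were higher in the tagged strain at 90 min. Their log2 differences at 0 min were 0.02 (SE 0.26) for FLO5, -0.14 (SE 0.33) for FLO10 and 0.17 (SE 0.49) for FLO11. At 90 min FLO5 had 148, 131 and 134 CPM in the tagged strain, against 57.5, 58.4 and 58.5 CPM in WT, a log2 difference of 1.24 (SE 0.27, adjusted p = 0.000284). FLO10 had 93.2, 112 and 84.9 CPM in the tagged strain, against 32.2, 31.8 and 33.3 CPM in WT, a log2 difference of 1.58 (SE 0.33, adjusted p = 0.000189). For both genes the WT libraries lay close together and every tagged one was above them. Groups lay apart in this direction in 29.9% of all features. FLO11 had 151, 79.5 and 65.6 CPM in the tagged strain, against 32.6, 25.8 and 35.3 CPM in WT, a log2 difference of 1.66 (SE 0.50, adjusted p = 0.00728). Its groups did not overlap either, but FLO11 was called in 1 of the 6 fits that left out a single library. Without Abf1 90 min replicate 1 the difference was 1.17 (adjusted p = 0.0807), and in the other 5 fits it lay between 1.54 (adjusted p = 0.0346) and 1.85 (adjusted p = 0.00652). Without all 11 tagged libraries of replicate 1, a setting chosen after seeing the data, FLO11 was called at 1.19 (adjusted p = 0.000857). Without those of replicate 2, 5 values over the depletion and strain comparisons were no longer called, and without those of replicate 3 also 5. That is more than the depletion calls alone, so each of these fits also lost a call between the strains at 90 min. In the main fit FLO5, FLO10 and FLO11, 3 members of 5, were called higher, where 9.33% of all features were.

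**Figure D3:**
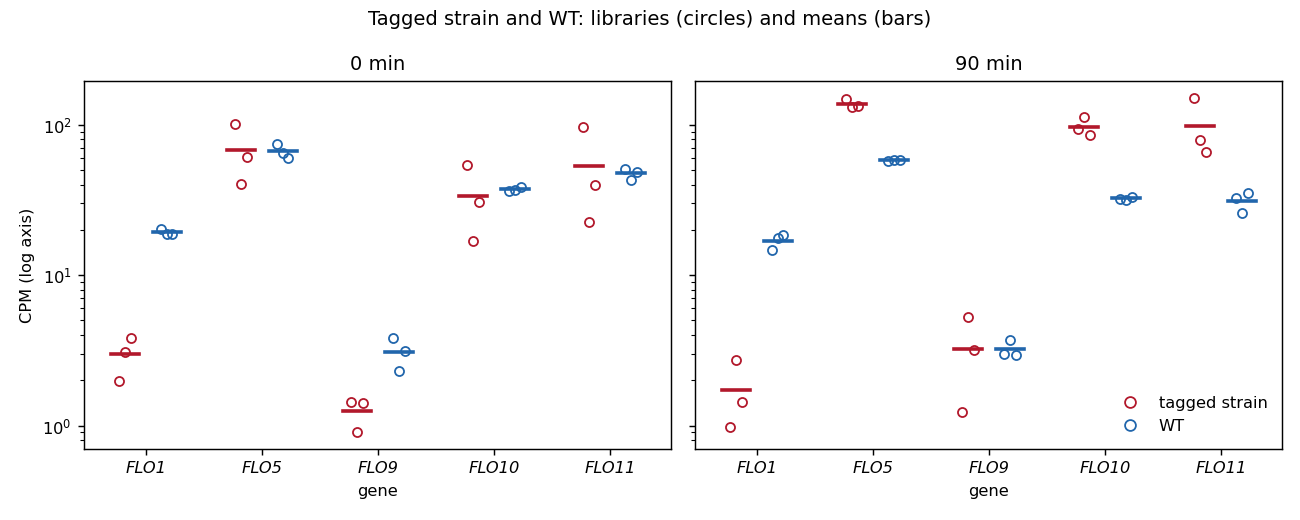
CPM on a log axis for each library (circles) and group mean (bars), with the tagged strain left of WT for each gene, at 0 min (left panel) and 90 min (right panel). FLO1 was separated at both times, whereas FLO5, FLO10 and FLO11 overlapped at 0 min and were apart at 90 min.

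During depletion, FLO10 had the earliest edgeR call of the 5 members (with the replicate block it shared that place with FLO5) and the largest called value. In time order, with 0 min first and 90 min last, it had 53.8, 78.3, 75.9, 63.1, 54.7, 51.3, 53.6, 66.8, 90.1, 79.6 and 93.2 CPM in replicate 1. Replicate 2 had 16.8, 35.7, 45.9, 33.4, 30.7, 68.7, 60.6, 87.8, 84.1, 90.3 and 112 CPM over the same 11 times, and replicate 3 had 30.5, 47.4, 35.6, 42.4, 40.2, 44.5, 41.6, 57.9, 58.6, 57.4 and 84.9 CPM. All FLO10 libraries from 50 min on were above all 3 at 0 min, whereas those up to 40 min overlapped them. At 50, 60, 75 and 90 min 17.2%, 20.4%, 21.8% and 21.9% of all features lay apart in this direction. FLO10 rose by a log2 value of 1.2 at 60 min (SE 0.32, adjusted p = 0.00496), 1.16 at 75 min (SE 0.32, adjusted p = 0.00548) and 1.52 at 90 min (SE 0.33, adjusted p = 0.000409). At 50 min the value was 1.07 (SE 0.32, adjusted p = 0.013), just short of the threshold. It was the single member that edgeR called higher at 60 min and at 75 min, where 2.74% and 4.74% of all features were called higher. DESeq2 also called FLO10 at 50 min (1.05, adjusted p = 0.00611) and FLO5 at 75 min (0.83, adjusted p = 0.00746). The 90 min call held in each of the 6 fits that left out a single library, with adjusted p of at most 0.00882. The 60 min and 75 min calls held in 2 of 6 such fits each, and were lost without Abf1 0 min replicate 2 (0.84, adjusted p = 0.0675, at 60 min and 0.80, adjusted p = 0.0738, at 75 min), without Abf1 0 min replicate 3, and without replicate 1 or replicate 2 of the later time.

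FLO5 followed with a smaller change. Its levels in time order were 101, 125, 113, 106, 110.4, 96.0, 102, 111, 149.6, 143 and 148 CPM in replicate 1. Replicate 2 had 40.2, 67.1, 73.1, 71.0, 55.3, 86.4, 91.7, 119, 109, 128 and 131 CPM, and replicate 3 had 61, 74.1, 73.4, 77.9, 73.9, 82.7, 76.6, 95.6, 96.1, 95.1 and 134 CPM. The 0 min libraries spread over more than the whole WT range, and the 90 min libraries were the first to lie all above them. At 90 min 21.9% of all features lay apart in this direction. FLO5 rose by a log2 value of 1.03 at 90 min (SE 0.26, adjusted p = 0.00261). With FLO10 this made 2 of 5 members higher at 90 min, where 6.26% of all features were, and no member lower, where 11.3% were. The FLO5 call held in 3 of 6 fits without a single library, and was lost without Abf1 0 min replicate 2 (0.72, adjusted p = 0.0466), without Abf1 0 min replicate 3 (0.92, adjusted p = 0.0227) and without Abf1 90 min replicate 1 (0.92, adjusted p = 0.0166). When the fit held just the 6 libraries of each comparison, no member was called at any time: adjusted p at 90 min was 0.0196 for FLO10 and 0.0368 for FLO5.

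FLO11 had the widest spread and was not called at any time by edgeR without the replicate block, or by DESeq2. Replicate 1 had 96.9, 131, 125, 94.1, 94.8, 75.3, 85.0, 94.4, 139, 127 and 151 CPM over the 11 times. Replicate 2 had 22.6, 41.3, 64.7, 46.7, 35.5, 72.0, 69.2, 98.2, 80.5, 76.9 and 79.5 CPM, and replicate 3 had 40.0, 48.2, 52.6, 57.9, 45.3, 53.4, 47.7, 53.4, 58.6, 63.1 and 65.6 CPM. Within each replicate the 90 min level was above the 0 min level, but replicate 1 at 0 min was above replicates 2 and 3 at 90 min. The log2 value at 90 min was 0.89 (SE 0.48, adjusted p = 0.154). It was 1.61 (adjusted p = 0.0224) without Abf1 0 min replicate 1 and 0.40 (adjusted p = 0.591) without Abf1 90 min replicate 1. With the replicate number as a block in the fit it was called, at 0.95 (adjusted p = 0.00909).

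For FLO9, counts were too low for a firm value. It had 1.23, 5.26 and 3.17 CPM in Abf1 90 min (5, 25 and 11 counts), against 1.44, 0.905 and 1.41 CPM in Abf1 0 min. Replicates 2 and 3 were above all 0 min libraries and replicate 1 was not. The log2 value was 1.27 at 60 min (SE 0.44, adjusted p = 0.0276), 1.2 at 75 min (SE 0.44, adjusted p = 0.0359) and 1.37 at 90 min (SE 0.45, adjusted p = 0.0179). At 40 min it was 1.06 (SE 0.45, adjusted p = 0.0846). All libraries at 10, 40, 60 and 75 min were above all 0 min libraries, as were those of 11.4%, 16.8%, 20.4% and 21.8% of all features at these times. Of the 6 fits that left out a single library, 1 called the 90 min value, at 1.70 (adjusted p = 0.00288) without Abf1 90 min replicate 1, whereas without Abf1 90 min replicate 2 it was 0.74 (adjusted p = 0.326).

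FLO1 alone had negative values at all 10 times, between -1.36 (SE 0.51, adjusted p = 0.0594, at 30 min) and -0.51 (SE 0.46, adjusted p = 0.587, at 20 min). None was called, by edgeR or by DESeq2. Of the 10 values, 5 had an unadjusted p under 0.05. All libraries at 30, 40 and 75 min were below all 0 min libraries, as were those of 15.7%, 17.2% and 19.4% of all features. At 75 min the value was -1.30 (SE 0.49, adjusted p = 0.0422, or 0.0168 with the replicate block). Since the 10 times are all set against the same 3 Abf1 0 min libraries, their values share that error, and one sign at all times is not 10 separate observations. Both 0 min groups also belong to the comparison that picked the family. Tests of FLO1 against either of them are therefore not independent of that choice. With all libraries in the fit, edgeR called no member in either direction up to 40 min, and at 50 min none without the replicate block. In the 7 comparisons from 5 to 50 min, taken in time order, 0%, 0.245%, 0.315%, 0.629%, 1.26%, 1.49% and 2.66% of all features were called higher. In the same order 0.507%, 4.02%, 6.85%, 8.65%, 9.8%, 10.3% and 10.6% were called lower, with 11.1% in the comparison at 60 min.

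**Figure D4:**
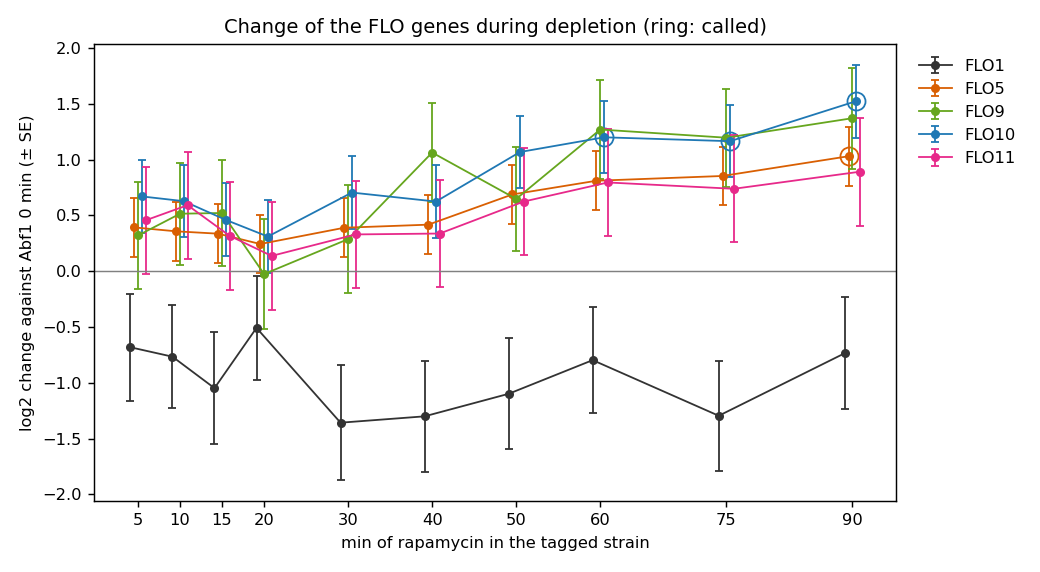
Log2 change against Abf1 0 min, with its SE, for each gene over min of rapamycin in the tagged strain, where a ring marks a called value. FLO10 at 60, 75 and 90 min and FLO5 at 90 min are ringed, and FLO1 lies below 0 throughout.

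Levels of these genes also went with the replicate number. Among the 11 tagged groups, replicate 1 was the highest of the 3 libraries at 10 times for FLO5 and at 10 for FLO11, a pattern shared by 10.5% of all features. Replicate 1 was highest at 6 times for FLO10, 5 for FLO9 and none for FLO1, where it was the lowest at 8 times. The gap was widest in the separate cultures given DMSO alone: in Abf1 0 min replicate 1 was 4.29 times replicate 2 for FLO11, 3.20 times for FLO10 and 2.52 times for FLO5. A ratio above 3, a limit set after seeing these values, occurred in 0.28% of all features. WT libraries were closer, with the highest at most 1.25 times the lowest for FLO5, 1.07 times for FLO10 and 1.37 times for FLO11. The biological coefficient of variation in the fit was 39.7% for FLO11, 26.6% for FLO10 and 21.9% for FLO5, against 14.9%, 15.4% and 14.5% for the trend at their abundance. That of FLO1 was 24.0% and that of FLO9 22.5%, below their trend values of 26.5% and 28.8%.

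Taken by replicate number, the change from 0 to 90 min also differed. The ratio of 90 min to 0 min for FLO10 was 1.73 in replicate 1, 6.68 in replicate 2 and 2.79 in replicate 3. For FLO5 it was 1.47, 3.27 and 2.19, and for FLO11 1.56, 3.51 and 1.64. All 9 ratios were above 1, but they come from the same 6 libraries and from genes that moved together, so they are not 9 separate observations. Replicate 2, the lowest at 0 min, had the largest ratio for each gene, which follows in part from dividing by that level. With the replicate number as a block in the fit, 9 member-by-time values were called higher in place of 4. In that fit FLO5 was also called at 50 min (0.74, adjusted p = 0.00142), 60 min (0.84, adjusted p = 0.000316) and 75 min (0.89, adjusted p = 0.000132), FLO10 at 50 min (1.1, adjusted p = 0.0027) and FLO11 at 90 min. The block called 4.26%, 4.11%, 6.54% and 8.06% of all features higher at 50, 60, 75 and 90 min. What makes replicate 1 stand apart was not tested.

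No member was called after rapamycin in the strain without the tag. In WT 90 min against WT 0 min the log2 values were -0.19 (SE 0.35) for FLO1, -0.19 (SE 0.27) for FLO5, 0.07 (SE 0.39) for FLO9, -0.20 (SE 0.33) for FLO10 and -0.60 (SE 0.50, adjusted p = 0.809) for FLO11. These SE values rest on 1 spread per gene over all 39 libraries, most of them tagged. That spread was 21.9% for FLO5, 26.6% for FLO10 and 39.7% for FLO11. In the WT groups the SD of these 3 genes was only 0.946% to 15.7% of the mean. The SE and the lack of calls thus also reflect the spread of the tagged libraries. No member and 0% of all features were called in either direction by edgeR or DESeq2, and no member had an unadjusted p under 0.05, which 4.89% of features had in the lower and 3.91% in the higher direction. In 4 members, all but FLO9, every WT 90 min library was nevertheless below every WT 0 min library, which held for 19.6% of all features. FLO11 had 32.6, 25.8 and 35.3 CPM in WT 90 min, against 51, 42.8 and 48.5 CPM in WT 0 min. FLO10 had 31.8 to 33.3 CPM in WT 90 min, against 35.9 to 38.5 CPM in WT 0 min, and FLO5 57.5 to 58.5 CPM, against 59.7 to 74.4 CPM. FLO1 had 14.7 to 18.6 CPM in WT 90 min, against 18.7 to 20.3 CPM in WT 0 min. When just the 6 WT libraries were fitted, FLO11 was called lower, at -0.59 (adjusted p = 0.000551), among the 0.126% of features called lower there. The effect of rapamycin in the tagged strain minus that in WT was 1.72 (SE 0.46) for FLO10, 1.49 (SE 0.69) for FLO11, 1.30 (SE 0.60) for FLO9, 1.22 (SE 0.37) for FLO5 and -0.55 (SE 0.61) for FLO1, given with no test because it contains the comparison that picked the family. In FLO5, FLO10 and FLO11 all 3 Abf1 90 min libraries were above the Abf1 0 min mean and all 3 WT 90 min libraries below the WT 0 min mean, as in 8.74% of all features.

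Ordered by mean level over the 13 groups, neighbouring groups seldom separated. FLO1 means lay between 1.12 ± 0.660 CPM in Abf1 30 min and 2.97 ± 0.930 CPM in Abf1 0 min, against 16.9 ± 2.00 CPM in WT 90 min and 19.3 ± 0.9 CPM in WT 0 min (SD, n = 3 each), and only WT 90 min was apart from both of its neighbours. FLO5 was highest in Abf1 90 min (138 ± 9.16 CPM), then Abf1 75, 60 and 50 min, and lowest in WT 90 min (58.1 ± 0.550 CPM), which alone was apart from its neighbour. FLO10 also had its highest groups at 90, 60, 75 and 50 min (96.9 ± 14.1, 77.6 ± 16.7, 75.8 ± 16.8 and 70.8 ± 15.3 CPM), and its lowest was WT 90 min (32.4 ± 0.785 CPM). FLO11 had the same 4 groups on top, led by Abf1 90 min (98.7 ± 45.8 CPM), and only WT 90 min (31.2 ± 4.89 CPM) was apart from the group above it, WT 0 min. For FLO9 and FLO10 each of the 12 neighbouring pairs overlapped.

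Over the 39 libraries, log2 CPM of FLO5, FLO10 and FLO11 moved together. Pearson's r was 0.952 between FLO5 and FLO10, 0.919 between FLO5 and FLO11 and 0.862 between FLO10 and FLO11, and 0.950, 0.907 and 0.840 over the 33 tagged libraries alone. FLO1 had negative r with these 3 genes, between -0.621 and -0.535, and FLO9 had 0.148 to 0.407. Over the tagged libraries alone r lay between -0.561 and -0.429 for FLO1 and between 0.425 and 0.688 for FLO9. These values describe libraries that share strain, time and replicate number. Among all features tested, the 3 most like FLO5 were FLO10, FLO11 and CDC27 (0.909), a subunit of the anaphase-promoting complex. For FLO10 they were FLO5, CIN1 (0.933), which acts in tubulin folding, and PDC5 (0.902), a pyruvate decarboxylase. FLO11 was most like EHD3 (0.921), FLO5 and PTR3 (0.907), a part of the amino acid sensor at the plasma membrane. FLO1 was most like MSO1 (0.9), YPR172W (0.892) and BSP1 (0.885), whose r was only 0.609, 0.514 and 0.470 in the tagged libraries alone. FLO9 was most like MET10 (0.707), PRP45 (0.662) and MET3 (0.659), of which MET10 and MET3 code for enzymes of sulphate assimilation.

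Of 25 known regulators of flocculation, all passed the filter. At 90 min of depletion 3 were lower (12% of the list) and 2 higher (8%), against 11.3% and 6.26% of all features, and the list's median log2 value was -0.07, against 0.04 over all features. TEC1, a partner of Ste12 that activates FLO11, fell by 0.88 on the log2 scale (SE 0.19, adjusted p = 0.000327). MIG1, a glucose repressor, fell by 0.68 (SE 0.17, adjusted p = 0.00212). NRG1, which codes for a repressor of FLO11, rose by 0.75 (SE 0.18, adjusted p = 0.00118), and HST2, coding for a deacetylase of the Sir2 family, rose by 0.64 (SE 0.12, adjusted p = 0.000101). Between the strains at 90 min 5 regulators were lower (20%) and 2 higher (8%), against 14.1% and 9.33% of all features, among them PHD1, an activator of filamentous growth, at -0.93 (SE 0.27, adjusted p = 0.00508). In WT 90 min against WT 0 min none of the 25 was called.

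FLO8 itself was transcribed in both strains and was not called. It had 142 ± 14.6 CPM in Abf1 90 min, against 150.1 ± 23.5 CPM in Abf1 0 min (log2 -0.08, SE 0.13, adjusted p = 0.669), and 130 ± 9.10 CPM in WT 90 min (SD, n = 3 each). In the reference the FLO8 frame of 800 codons meets a stop at codon 142, which is printed because it limits what these strains say about FLO activation. The stretch lies at chrV:377159-377221 on the minus strand, with the stop codon in capitals.
FLO8: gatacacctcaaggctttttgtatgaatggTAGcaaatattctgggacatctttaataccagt
Whether these libraries carry the same base was not examined, since counts hold no sequence.

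Abf1 is known to bind a split motif, searched here as TCA and ACG with 6 bases of any kind between them, on both strands of the 500 bases before each start codon. FLO1 held a match and the other 4 members held none, while 22.7% of 6000 genes held one. The match is a description of the letters and not of binding.

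Other cell wall mannoproteins were measured as a comparison, since they share the sugar coat of flocculins, and most of them the anchor. Of 21 listed genes 19 passed the filter, and at 90 min of depletion 4 were higher (21.1%) and none lower, against 6.26% and 11.3% of all features, with a list median of 0.14, against 0.04 over all features. PIR3, a wall protein without that anchor and linked through its repeats, rose most, by 2.25 (SE 0.33, adjusted p = 2.25e-06). CWP2, a major mannoprotein of the wall, rose by 1.03 (SE 0.19, adjusted p = 7.03e-05), TIR4, a mannoprotein of anaerobic cells, by 0.91 (SE 0.23, adjusted p = 0.00193), and CCW12, another abundant one, by 0.69 (SE 0.19, adjusted p = 0.00413). At 60 min PIR3 was the only one called (1.51, SE 0.33, adjusted p = 0.000703). Of 4 FLO-like gene fragments 3 were in the table, with at most 3 counts in any library, and none could be tested.

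Position near a chromosome end was compared next. Within 40 kb of an end lay 538 features, of which 416 passed the filter. At 90 min of depletion 8.65% of these were higher and 8.41% lower, against 6.26% and 11.3% of all features, and the median log2 value was 0.14, against 0.04 over all features. Among the direct neighbours, up to 3 on each side of every member, 17 were tested, and at 90 min 3 were higher and 1 lower. Both tested neighbours on the telomere side of FLO10 rose with it. NFT1, coding for a transporter of the ABC family, had 103 ± 5.25 CPM in Abf1 90 min, against 42.8 ± 6.01 CPM in Abf1 0 min, and rose by 1.27 (SE 0.17, adjusted p = 6.04e-07). YKR104W, which in other strains forms a single frame with NFT1, had 21.7 ± 2.00 CPM in Abf1 90 min, against 7.63 ± 0.658 CPM in Abf1 0 min, and rose by 1.51 (SE 0.22, adjusted p = 1.98e-06). On the other side SIR1, a silencing gene, had 0.44 (SE 0.11, adjusted p = 0.00254), under the fold limit, SKG1 had 0.24 (SE 0.10, adjusted p = 0.0639), and BAS1, an activator of purine and histidine synthesis, fell by 0.81 (SE 0.14, adjusted p = 2.29e-05). Unlike FLO10, NFT1 had close replicates at 0 min, with 39.9, 38.7 and 49.7 CPM, so the spread of FLO10 at 0 min was not shared by NFT1.

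**Figure D5:**
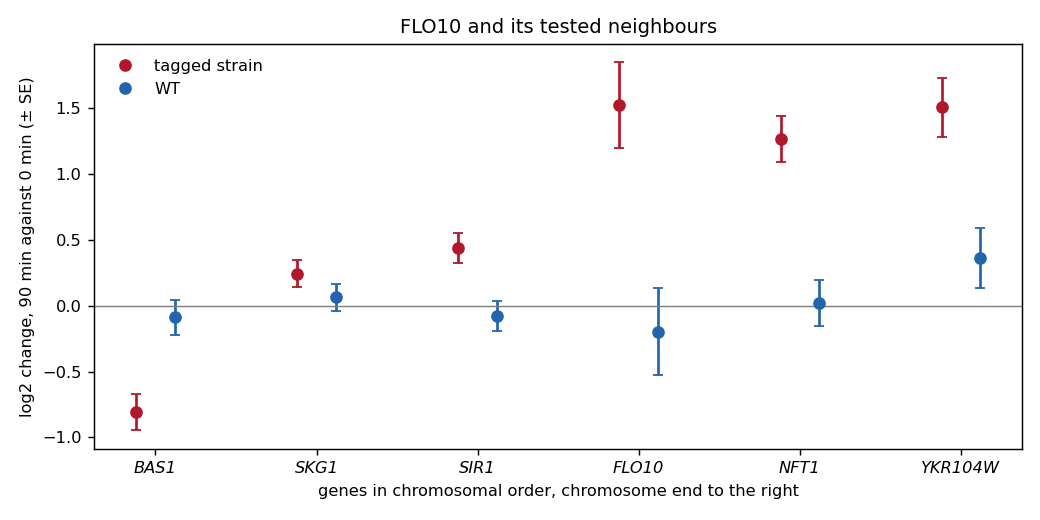
Log2 change of 90 min against 0 min, with its SE, for FLO10 and its tested neighbours in chromosomal order, with the tagged strain (red) left of WT (blue). In the tagged strain FLO10, NFT1 and YKR104W were at 1.52, 1.27 and 1.51 and BAS1 was at -0.81, while no WT value was called.

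Around the other members fewer neighbours were called. Their median log2 value at 90 min was larger beside FLO11 (0.83) and FLO9 (0.71) than beside FLO10 (0.44), and smaller beside FLO1 (0.03) and FLO5 (-0.07). BDH2, a dehydrogenase gene beside FLO9, was higher at 20, 60 and 90 min of depletion, the times at which lists were read, with 0.71 (SE 0.20, adjusted p = 0.00663) at 90 min. Of 6 neighbours of FLO1, SWH1 and YAT1 were tested, both on the side away from the telomere, and were not called, at -0.21 (SE 0.09, adjusted p = 0.0793) and 0.26 (SE 0.77, adjusted p = 0.818), nor did they differ by a call between the strains at 90 min (-0.05, adjusted p = 0.725, and 1.24, adjusted p = 0.225). The other 4, including all 3 on the telomere side, had too few counts for a test. None of the 3 tested neighbours of FLO5 was called. Beside FLO11, MET28 had the largest value, at 1.68 (SE 0.60, adjusted p = 0.03), and was not called either.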

How the data were processed

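Newly made RNA was sequenced as 4tU-seq libraries with molecular identifiers. Following the study's methods, the authors aligned reads to sacCer3 with HISAT2 2.0.5, kept each identifier combination once and deposited raw counts per feature from featureCounts (Subread 1.6.5). Features were genes extended with published start sites. A deposited table of the authors' own comparisons (DESeq2 fold changes and p-values) was not used. Use of strand in counting was not given in the sources used here, so values of overlapping genes are uncertain.

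The counts were tested with edgeR 4.0.16 (R 4.3.3, limma 3.58.1): quasi-likelihood F-test, robust, TMM factors, 1 coefficient per group over all 39 libraries, filterByExpr with a minimum count of 10, Benjamini-Hochberg adjustment over 5722 features. A gene was called at an adjusted p under 0.01 and a fold above 1.5. CPM use TMM-adjusted totals; correlations used log2 CPM with a prior count of 2. Alternatives were DESeq2 1.42.0, its size factors, no filter, the replicate block, the compared libraries alone, the sum of FLO1, FLO5 and FLO9, and single libraries left out. The script was tested on simulated data. Sequences and coordinates are from RefSeq R64 and alignments from Biopython 1.88. The SE values come from the quasi-likelihood fit and include a spread between replicates, estimated per gene over all 39 libraries. Floors cover counting error only.

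The labels do not say what a replicate number shares. Deviations of same-numbered libraries from their group means correlated at over 0.1 for every number in 9 of 10 depletion comparisons (0.247 to 0.793). This pairing is read from the data and not the design. The main fit and its calls did not use it, and only the replicate block, given as an alternative, did. Named genes were the 5 members, from each list the called genes (at most 4 by fold) and the 3 features best correlated with each member. FLO8 and the neighbours that were not called were named outside that rule, after their values were seen. The members and all lists were chosen with earlier results of these data known.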

Additional observations from a re-analysis of the deposited data

Results flagged for a closer look

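In 3 members the 90 min libraries of the strains lay on opposite sides of their own 0 min mean: all 3 tagged libraries were above it and all 3 WT libraries below it. This held for 8.74% of all features tested. The effect of rapamycin in the tagged strain minus that in WT was 1.22 for FLO5, 1.72 for FLO10 and 1.49 for FLO11 on the log2 scale. The difference was not tested for any of them, because it contains the comparison that picked the family.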

How the results depend on the processing

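The 4 member-by-time values called higher became 6 with DESeq2, 9 with the replicate block, and 0 when just the libraries compared were fitted. DESeq2 size factors in edgeR, no filter on low counts and the sum of FLO1, FLO5 and FLO9 left the count at 4, and no lower call appeared under any setting. Leaving out 1 library gave 1 to 8 calls, with 8 without Abf1 0 min replicate 1 and 1 without either other 0 min library. Leaving out all 11 tagged libraries of a replicate number, chosen after seeing the data, gave 16 calls without replicate 1, 0 without replicate 2 and 0 without replicate 3. Between the strains at 90 min, members called lower were 1, or 0 with the 3 genes added up, and FLO11 was no longer called without the filter (1.62, adjusted p = 0.0108). In WT, members called lower were 0, or 1 with the 6 WT libraries alone. The block changed no call between the strains or in WT. Same-numbered libraries did not pair at 50 min, where the lowest correlation was 0.0849.

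Some values turned sign. With FLO1, FLO5 and FLO9 added up, the value in time order was 0.36, 0.33, 0.30, 0.21, 0.34, 0.39, 0.64, 0.78, 0.81 and 0.99 where FLO1 alone was negative and FLO9 alone was -0.03 at 20 min. The sum was 0.87 between the strains at 90 min and -0.18 in WT. FLO9 between the strains at 90 min was -0.012 without the filter, and without all tagged libraries of a number -0.60 (replicate 2) and -0.0056 (replicate 3). Without all tagged libraries of replicate 2, FLO11 was -0.12 at 30 min and -0.069 at 40 min, and without those of replicate 1 FLO9 was 0.078 at 20 min. Over fits without a single library, FLO11 ranged over -0.27 to 1.2 at 5 min, -0.088 to 1.04 at 15 min, -0.40 to 0.86 at 20 min, -0.070 to 1.06 at 30 min and -0.056 to 1.07 at 40 min. At 20 min FLO10 ranged over -0.053 to 0.78, FLO5 over -0.065 to 0.62 and FLO9 over -0.26 to 0.14. FLO9 also ranged over -0.087 to 0.66 at 5 min, -0.60 to 0.37 between the strains at 90 min and -0.11 to 0.24 in WT. The cause of these changes was not tested. Depth limits FLO1 and FLO9 most, with 2 to 22 and 3 to 26 counts per tagged library.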
